A study of Mus musculus with 8 samples.

Results

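The genes described here encode regulators of pre-mRNA splicing: the SR proteins (symbols starting with Srsf), the heterogeneous nuclear ribonucleoproteins (Hnrnp), the CDC-like kinases Clk1 to Clk4, and the splicing factors Tra2a, Tra2b, Rbm39, Sf3b1, Sf1, U2af1 and U2af2. Their RNA was measured in HL1 cells, a mouse atrial cardiomyocyte line grown with norepinephrine in its medium, whose nuclei were split with a urea and detergent buffer into a chromatin pellet and the soluble nucleoplasm. Both fractions are of this 1 line with no further treatment in the labels, and the comparison of 3 chromatin with 3 nucleoplasm short-read libraries asks which RNA stays with chromatin. In addition, 2 long-read nanopore cDNA libraries were made from chromatin RNA only. A gene was a member if a locus assembled from the short reads covered the span of its protein-coding GENCODE M21 annotation on the same strand with a Jaccard index (shared length over combined length) of at least 0.5. Of 42 genes named by these symbols, 37 qualified, out of 20637 assembled loci in the table: 8 of 11 Srsf genes, 19 of 20 Hnrnp genes, all 4 Clk kinases and 6 of 7 other factors. The index just inside the limit was 0.549 for Hnrnpdl and 0.55 for Hnrnpab. Just outside it were Hnrnpul2 and U2af2 at 0.48 each, then Srsf5 at 0.439 and Srsf1 at 0.395, while Srsf12 matched no assembled locus.

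SR proteins bind exons and the early spliceosome through RNA-recognition domains and carry a tail rich in arginine-serine dipeptides. Kinases of the CLK family phosphorylate that tail in the nucleus, which moves SR proteins between nuclear speckles and sites of splicing. Many hnRNP proteins bind the same transcripts and oppose exon inclusion. Several of these genes are known to control their own output by splicing, through exons or retained introns that lead to nonsense-mediated decay or to nuclear retention of the RNA, and Clk1 and Clk4 are known for introns around the fourth exon that are often kept in nuclear RNA.

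The kinase stretch that gives the CLK (LAMMER) family its name is shown first, because these 4 related genes differed in how their RNA was divided between the fractions. Capitals mark the 33 bases encoding the signature. The sequences were read from GENCODE M21 transcripts of mm10, exon 11 in each gene, 5′ to 3′.
Clk1, chr1:58412970-58413020, minus strand: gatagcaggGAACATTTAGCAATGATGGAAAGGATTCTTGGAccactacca
Clk2, chr3:89175398-89175448, plus strand: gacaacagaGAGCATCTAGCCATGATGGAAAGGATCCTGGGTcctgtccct
Clk3, chr9:57752138-57752188, minus strand: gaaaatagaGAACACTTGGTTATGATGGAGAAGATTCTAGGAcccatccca
Clk4, chr11:51280364-51280414, plus strand: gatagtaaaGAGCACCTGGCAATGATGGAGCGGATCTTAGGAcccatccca
Over these 51 bases Clk1 and Clk4 differed at 15 positions and Clk4 and Clk3 at 11. Over the whole coding sequence Clk1 was 73.2% identical to Clk4, 59.3% to Clk2 and 50.1% to Clk3, with gaps counted as differences.

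Exon 4 of each Clk gene is skipped in at least 1 annotated transcript classed as subject to nonsense-mediated decay. It is 91 bases long in Clk1, 85 in Clk2, 97 in Clk3 and 91 in Clk4, and none of these lengths is a multiple of 3. The exons of Clk1 and Clk4, the kinases with the higher chromatin to nucleoplasm ratios, are shown because 85 of their 91 bases are the same. Capitals mark the longest run they share, of 34 bases.
Clk1 exon 4, chr1:58420121-58420211, minus strand: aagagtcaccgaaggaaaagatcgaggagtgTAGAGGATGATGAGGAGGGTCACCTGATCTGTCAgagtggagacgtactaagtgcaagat
Clk4 exon 4, chr11:51273078-51273168, plus strand: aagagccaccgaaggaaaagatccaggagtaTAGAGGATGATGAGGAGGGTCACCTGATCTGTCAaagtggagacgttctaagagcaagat
The deposited tables give the span of each locus or transcript and not its exons, so use of this exon was not measured here.

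The codons of SR proteins repeat arginine-serine pairs, and the windows of 20 codons with most pairs are shown for 3 genes that were higher in chromatin and for Srsf9, which was lower. Capitals mark codons that belong to a pair.
Srsf11, chr3:158016393-158016452, minus strand: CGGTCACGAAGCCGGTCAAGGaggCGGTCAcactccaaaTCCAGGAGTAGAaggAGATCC
Srsf10, chr4:135863105-135863164, plus strand: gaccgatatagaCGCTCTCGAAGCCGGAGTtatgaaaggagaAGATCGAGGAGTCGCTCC
Rbm39, chr2:156172863-156172922, minus strand: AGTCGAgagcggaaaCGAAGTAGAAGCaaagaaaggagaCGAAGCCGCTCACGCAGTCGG
Srsf9, chr5:115332594-115332653, plus strand: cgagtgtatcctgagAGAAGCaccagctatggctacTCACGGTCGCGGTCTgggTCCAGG
The windows hold 11 pairs in Srsf11, 10 in Srsf10, 10 in Rbm39 and 6 in Srsf9. Windows not shown hold 13 in Srsf4, 10 in U2af1, 4 in Clk1 and 3 in Clk4, all higher in chromatin, and 2 in Hnrnpa0, which was lower. Pairs per 100 codons ranged over the 8 Srsf members from 4.05 in Srsf9 to 23.5 in Srsf2, against a median of 0.722 over 21506 coding genes. None of the 19 Hnrnp members reached 3 pairs per 100 codons, a density that 1.42% of coding genes reached.

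Members were more often higher in chromatin than lower. Of the 37 members, 21 were higher in chromatin (limma on log2 values, adjusted p under 0.05 over all 35830 genes tested) where 26.9% of all genes and 25.5% of assembled protein-coding loci were called higher. Another 6 were lower, where 20.9% of all genes and 43.4% of protein-coding loci were called lower, and 10 were not called, where 47.8% of all genes and 68.9% of protein-coding loci were called in either direction. More than 4-fold higher were 4 members (15.7% of all genes and 5.27% of protein-coding loci), and more than 4-fold lower by limma were 0 (4.90% and 6.06%), the lowest log2 fold change being -1.72. A fold is the ratio of fraction means, except that counts of genes beyond 4-fold used the limma log2 fold change. Values are the deposited normalized counts, with 3 libraries per fraction. Such values are relative within a fraction, and in bulk RNA fewer cells holding a transcript and less of it in each cell cannot be told apart. The median log2 fold change (chromatin minus nucleoplasm) was 0.60 over the members, 0.38 over all genes and -0.32 over protein-coding loci. Every chromatin library lay above every nucleoplasm library for 23 members (31.5% of all genes, 28.8% of protein-coding loci) and below for 9 (23.8% and 47.6%), and the groups overlapped for 5.

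**Figure D1:**
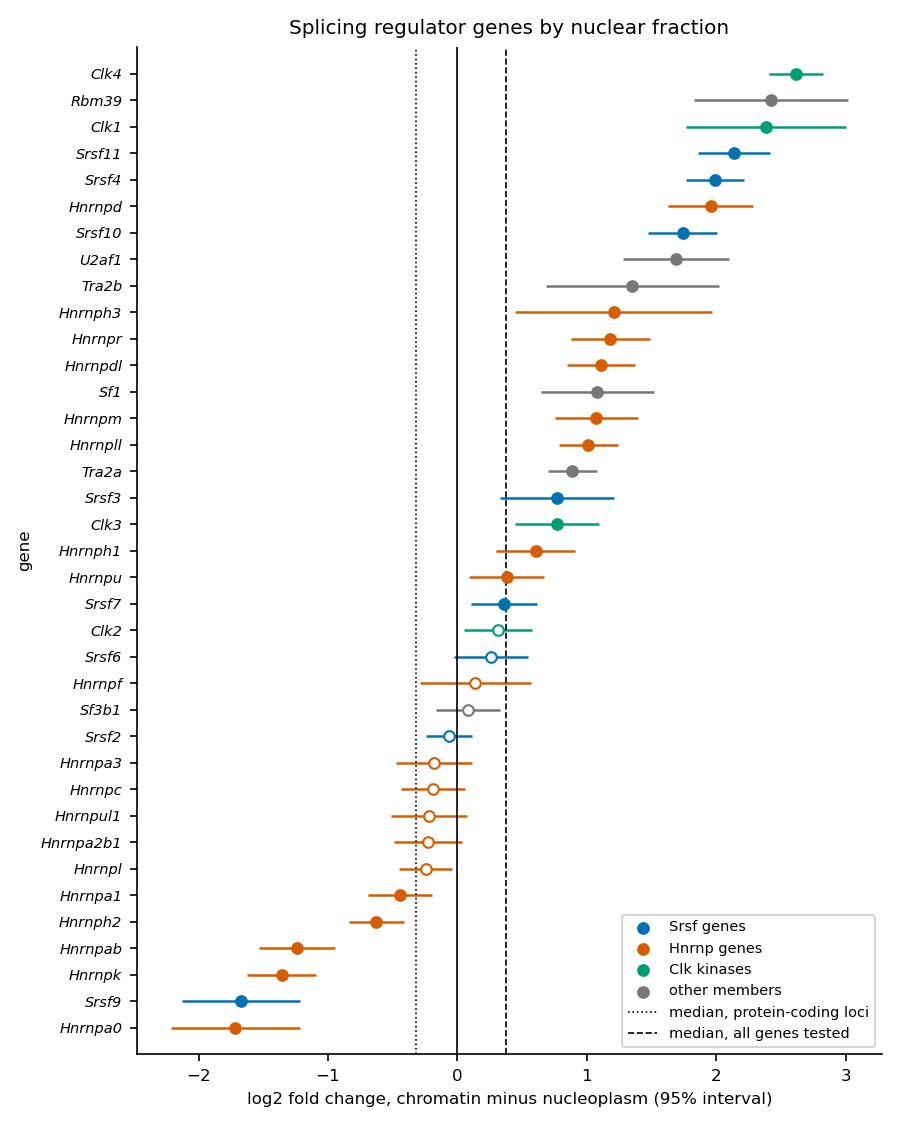
Log2 fold change between chromatin and nucleoplasm (x axis, 3 libraries each) for each of the 37 members (y axis), with 95% intervals from limma; filled points passed an adjusted p of 0.05 and open points did not, colours give the family, and vertical lines mark 0 and the medians of all genes (0.38, dashed) and of protein-coding loci (-0.32, dotted). Clk4, Rbm39, Clk1 and Srsf11 lie beyond a log2 fold change of 2, and Hnrnpa0 and Srsf9 lie lowest.

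Scaling mattered for the lower members. Each library was also scaled to its ERCC RNA standards, which were added to each nuclear fraction before RNA extraction, instead of the deposited size factors. The median over all genes then moved from 0.38 to 0.84 and that of the members from 0.60 to 1.34. This scaling uses 1 factor per library, so it moved well-counted genes alike, by 0.73 for the members' median. Rows with few counts can move less, because 1 is added before taking logs, so the larger move is not particular to the members. On that scale 27 members were called higher and 2 lower, where 34.8% of all genes were called higher and 8.67% lower. Thus 93.1% of the called members were higher in place of 77.8%, while over all called genes the share went from 56.3% to 80.0%. The 2 that stayed lower were Hnrnpa0 and Srsf9. As deposited, the ERCC counts summed to 213760, 197879 and 183950 in chromatin and 347971, 392823 and 261886 in nucleoplasm. The paper reports equivalent levels of the standards in both fractions. Fold changes below are on the deposited scale.

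The kinases Clk1 and Clk4, which phosphorylate SR proteins, were strongly higher in chromatin. Clk4 (chr11:51261730-51281766, plus strand) was counted at 12010.3, 10399 and 11829 in chromatin and 1908, 1816 and 1849 in nucleoplasm. Its log2 fold change was 2.62 ± 0.086 (SE), a 6.14-fold ratio (limma adjusted p = 2.28e-05), the largest among the members. Clk1 (chr1:58410189-58424066, minus strand) stood at 9834, 8757 and 16941 in chromatin and 2317, 2153 and 2058 in nucleoplasm. All chromatin libraries were far above all nucleoplasm libraries for both genes, and for Clk1 chromatin replicate 3 was 1.82 times the mean of the other two. The ratio for Clk1 was 5.44-fold (log2 2.38 ± 0.25, limma adjusted p = 0.000490), and without chromatin replicate 3 its log2 fold change was 2.09.

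Clk3 and Clk2 were divided more evenly. Clk3 (chr9:57750624-57765860, minus strand), with 6450.3, 6228 and 8415 in chromatin and 4040.1, 3937 and 4299 in nucleoplasm, was 1.72-fold higher in chromatin (limma adjusted p = 0.00396). Clk2 (chr3:89164795-89176921, plus strand), with 4734, 4804 and 3891 in chromatin and 3562, 3747 and 3455 in nucleoplasm, did not pass the test at a log2 fold change of 0.31 ± 0.11 (limma adjusted p = 0.0535, interval 0.053 to 0.57), although its groups did not overlap. Pairing the libraries by replicate number gave it an adjusted p of 0.0225 (limma), and leaving out chromatin replicate 3 one of 0.00612. Clk2 was also called higher with DESeq2 (adjusted p = 0.0194) and on the ERCC scale (log2 1.05, limma adjusted p = 0.00332). In all it was called under 6 of 17 alternative settings. The locus of Clk2 also spans the neighbouring gene Scamp3 on the same strand, so its counts hold both genes. Per kb of annotated exon, chromatin levels were 1969 for Clk4 and 1456 for Clk1 against 845 for Clk2 and 832 for Clk3. In nucleoplasm Clk3 was above Clk4 and Clk1, at 484 per kb against 320.4 and 268. The value for Clk2 there was 677 per kb. Its locus count holds Scamp3 while only Clk2 exons were used as the length, so its per kb levels can be too high to rank.

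Among the SR genes, 5 of 8 were higher in chromatin (62.5%), 1 was lower (12.5%) and 2 were not called. Over protein-coding loci the shares were 25.5% higher and 43.4% lower. Srsf11 (chr3:158010473-158036639, minus strand), whose protein is known to contact U2AF at the 3′ splice site, had 38131, 33312 and 42333 in chromatin and 8723, 8192 and 8804 in nucleoplasm. Srsf4, one of the longer SR proteins, had 26546, 24558 and 27465 in chromatin and 7110.1, 6298 and 6395 in nucleoplasm. Srsf10, an SR protein known as a splicing repressor when dephosphorylated, had 32089, 28408 and 27956 in chromatin and 9783, 8248 and 8466 in nucleoplasm. In all 3 genes the lowest chromatin library was above 2.5 times the highest nucleoplasm library. Their ratios were 4.42-fold, 3.97-fold and 3.34-fold (limma adjusted p = 4.12e-05, 3.14e-05 and 6.69e-05).

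Srsf3 and Srsf7, closely related SR proteins that also serve mRNA export, were higher by less. Srsf3 had 20449.8, 19189.8 and 29822 in chromatin and 13764, 12947 and 13227 in nucleoplasm, a 1.74-fold ratio (limma adjusted p = 0.0134). Srsf7 had 9446, 8923 and 10869 in chromatin and 8001, 7169.7 and 7537 in nucleoplasm, a 1.29-fold ratio (limma adjusted p = 0.0294). For Srsf3 chromatin replicate 3 was 1.505 times the mean of the other two, and for Srsf7 it was 1.18 times that mean. The call for Srsf7 was lost without chromatin replicate 1 (limma adjusted p = 0.0661) and without nucleoplasm replicate 1 (0.0540), 2 (0.101) or 3 (0.0671).

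Srsf6 and Srsf2 were near even. Srsf6, an activator of exon inclusion, had 14280, 13038 and 16722 in chromatin and 12433, 11392 and 12801 in nucleoplasm, and its log2 fold change of 0.26 ± 0.12 did not pass the test (limma adjusted p = 0.126), though it did with the libraries paired (0.0364). On the ERCC scale Srsf6 was called higher (log2 0.99, limma adjusted p = 0.0177). Srsf2, also known as SC35 and used as a marker of nuclear speckles, had 11594, 11253 and 10972 in chromatin and 11724, 11909.9 and 11708 in nucleoplasm, with an interval of -0.24 to 0.11 on the log2 scale. Its chromatin libraries were all below its nucleoplasm libraries, by little, and on the ERCC scale Srsf2 was called higher (log2 0.67, limma adjusted p = 0.0281). Srsf9 (chr5:115327177-115333080, plus strand), a short SR protein, was the exception of the family with 1208, 1214 and 817 in chromatin and 2994, 3443 and 3770.2 in nucleoplasm. Its nucleoplasm mean was 3.15 times its chromatin mean (limma adjusted p = 0.000605).

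**Figure D2:**
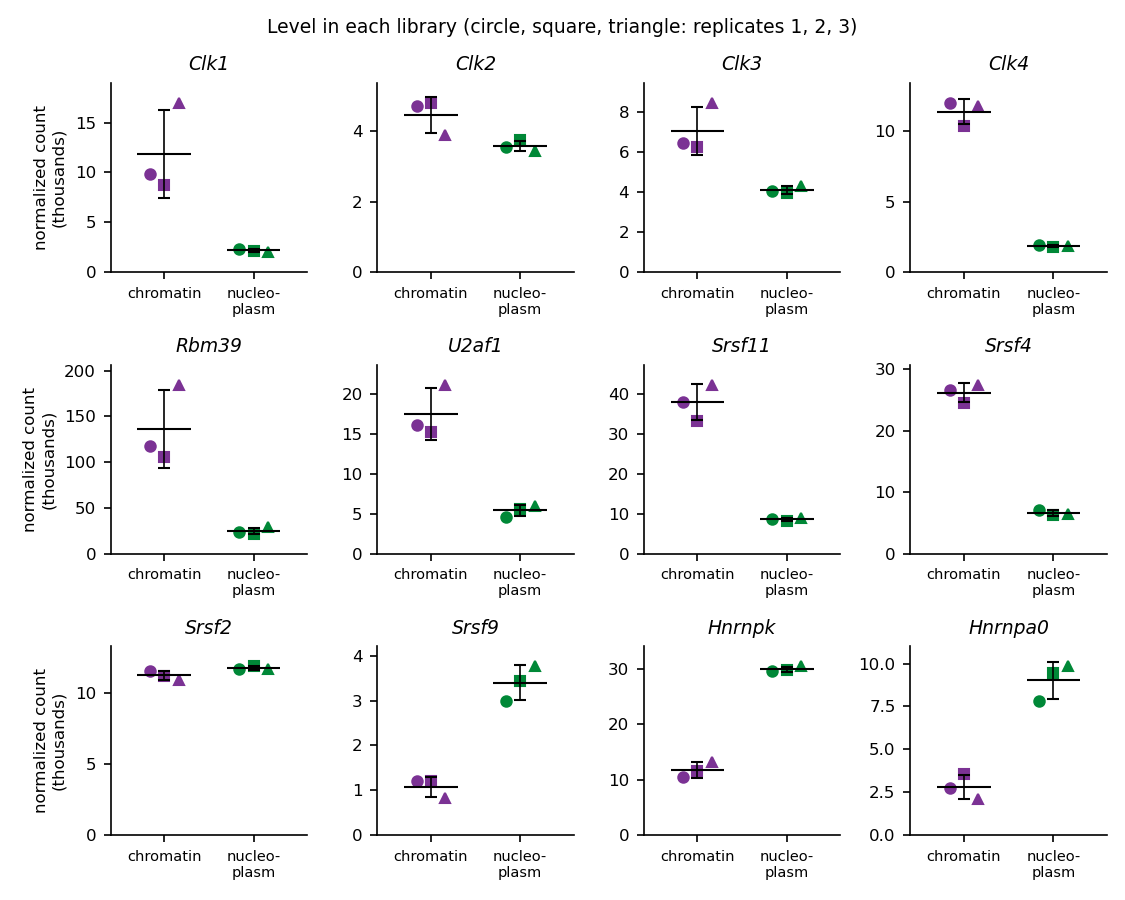
Normalized count (y axis, from 0, scaled as the axis states) for 12 members in each chromatin (purple) and nucleoplasm (green) library, with symbols for replicates 1 to 3 and black bars for the mean ± SD of 3 libraries. Clk1, Rbm39 and U2af1 show chromatin replicate 3 above the other two, and Srsf9, Hnrnpk and Hnrnpa0 are higher in nucleoplasm.

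Of the 6 other splicing factors among the members, 5 were higher in chromatin (83.3%, against 25.5% of protein-coding loci) and 1, Sf3b1, was not called. Rbm39 (chr2:156147239-156180238, minus strand), a U2AF-related cofactor, was the most abundant member in chromatin per kb of exon, at 19543 normalized counts. Its libraries read 117583, 105143 and 184518 in chromatin and 23496, 21861 and 28625 in nucleoplasm, a 5.50-fold ratio (log2 2.43 ± 0.24, limma adjusted p = 0.000392). Chromatin replicate 3 was 1.66 times the mean of the other two, and without it the log2 fold change was 2.18. U2af1, the small U2AF subunit that reads the 3′ splice site, had 16115, 15185 and 21135 in chromatin and 4589, 5590 and 5999.5 in nucleoplasm, which is 3.24-fold higher in chromatin (limma adjusted p = 0.000374). Sf1, the branch point binding protein, had 18906, 18238 and 27114 in chromatin and 10995, 9974 and 9025 in nucleoplasm, a 2.14-fold ratio (limma adjusted p = 0.00324).

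Tra2a and Tra2b, SR-like activators of exon inclusion, were both higher in chromatin. Tra2a had 13907, 13028 and 14168 in chromatin and 7702, 7216 and 7296 in nucleoplasm, a 1.85-fold ratio (limma adjusted p = 0.000232). Tra2b had 18923, 16506 and 33126 in chromatin and 8314, 7713 and 9716 in nucleoplasm, a 2.66-fold ratio (limma adjusted p = 0.00754). In Tra2b chromatin replicate 3 was at 1.87 times the mean of the other two, and its log2 fold change without that library was 1.05. Sf3b1, the largest subunit of the U2 particle's SF3b complex, had 25056, 23696 and 27532 in chromatin and 25312, 22821 and 23855 in nucleoplasm. Its groups overlapped, the interval was -0.16 to 0.33 (log2), and the sign turned with edgeR's TMM scaling (log2 -0.025). On the ERCC scale Sf3b1 was called higher (log2 0.82, limma adjusted p = 0.0262). U2af2, the large U2AF subunit, missed the Jaccard limit, and its locus, which also covers Epn1, read 9232, 9746 and 8139.6 in chromatin and 16482, 17403 and 17713 in nucleoplasm. That locus was called lower in chromatin (log2 -0.93 ± 0.097, limma adjusted p = 0.000466). The remaining genes outside the Jaccard limit were not called. Srsf1 read 23528, 23585 and 24779 in chromatin and 23707, 23375 and 24821 in nucleoplasm, and Srsf5 10890.1, 9764 and 17218 in chromatin and 7615, 6906 and 8820.3 in nucleoplasm. Hnrnpul2, whose locus also covers Bscl2, read 11128, 11670.4 and 9296 in chromatin and 12089, 12438 and 12856 in nucleoplasm.

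The hnRNP genes moved both ways: of 19 members 8 were higher in chromatin (42.1%), 5 lower (26.3%) and 6 not called. Their median log2 fold change was -0.18, against -0.32 over protein-coding loci. Of those loci 25.5% were called higher and 43.4% lower. Hnrnpd, known as the AU-rich element binding protein AUF1, led with 27426, 24023 and 30833 in chromatin and 7485, 6166 and 7508 in nucleoplasm. Its ratio was 3.89-fold (limma adjusted p = 9.40e-05). Its relative Hnrnpdl had 13531, 11689 and 13487 in chromatin and 6038, 5435 and 6465 in nucleoplasm, a 2.16-fold ratio (limma adjusted p = 0.000327). Hnrnpr had 16874, 14716 and 12459.7 in chromatin and 6611, 6310.3 and 6358 in nucleoplasm, Hnrnpll, a regulator of exon skipping in lymphocytes, 13504, 12272 and 14112 in chromatin and 6618, 6184 and 6993 in nucleoplasm, and Hnrnpm 51628, 47714 and 50246 in chromatin and 27308, 20509 and 23699.5 in nucleoplasm. These 3 were 2.28-, 2.02- and 2.09-fold higher in chromatin (limma adjusted p = 0.000488, 0.000282 and 0.000885) with no overlap between fractions. The locus counted for Hnrnpm reaches 31.8 kb past the annotated 5′ end and takes in another coding gene there.

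Smaller differences toward chromatin were seen for 3 further genes. Hnrnph1, which binds G-rich runs, had 24323, 22017 and 24004 in chromatin and 15642, 13327 and 17526 in nucleoplasm, a 1.51-fold ratio (limma adjusted p = 0.00823). Hnrnpu, also called SAF-A and known to bind nuclear scaffold and chromatin, had 70762, 65528 and 75332 in chromatin and 53977, 50123 and 58625 in nucleoplasm, a log2 fold change of 0.38 ± 0.12 (limma adjusted p = 0.0411). The call for Hnrnpu was lost on leaving out any one library but nucleoplasm replicate 3, at adjusted p of 0.0996, 0.0533 and 0.0678 (limma) without chromatin replicates 1, 2 and 3 and 0.103 and 0.123 without nucleoplasm replicates 1 and 2. Hnrnph3, the member with the fewest reads, had 1084, 1116 and 520.4 in chromatin and 396, 334 and 385 in nucleoplasm. Its chromatin replicate 3 was 0.473 times the mean of the other two. Its 2.44-fold ratio passed the test (limma adjusted p = 0.01996) with all libraries and on leaving out chromatin replicate 3, and not on leaving out chromatin replicates 1 or 2 (0.0775 and 0.0677) or nucleoplasm replicates 1, 2 or 3 (0.0506, 0.0672 and 0.0507).

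The hnRNP genes lower in chromatin were led by Hnrnpa0 (chr13:58125879-58128556, minus strand), annotated with 1 exon. It had 2721, 3545 and 2122 in chromatin and 7813, 9427 and 9846 in nucleoplasm, a nucleoplasm mean 3.23 times the chromatin mean (limma adjusted p = 0.000806). Hnrnpk, a poly-C binding protein, had 10447, 11489 and 13199 in chromatin and 29543, 29733 and 30471 in nucleoplasm, and Hnrnpab 18962, 20267 and 23755 in chromatin and 52751, 46876 and 48598 in nucleoplasm. Their nucleoplasm means were 2.55 and 2.35 times their chromatin means (limma adjusted p = 0.000165 and 0.000353), calls that the ERCC scale did not keep (log2 -0.63 and -0.51). Hnrnph2, on the X chromosome and close in sequence to Hnrnph1, had 4569, 4628 and 4901 in chromatin and 6736, 7202 and 7847 in nucleoplasm. Hnrnpa1, a classical repressor of exon inclusion, had 15206, 14742 and 13134 in chromatin and 21089, 18417 and 19033 in nucleoplasm. For these last 2 genes the nucleoplasm was higher by 1.55- and 1.36-fold (limma adjusted p = 0.00157 and 0.0127), and the sign turned on the ERCC scale (log2 0.11 and 0.29).

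The 6 hnRNP genes that were not called had log2 fold changes from -0.24 to 0.14. Hnrnpl, which binds CA-rich runs, had 20259, 20774 and 19572 in chromatin and 24331, 24779 and 22733 in nucleoplasm. Its groups did not overlap, and it was called lower with the libraries paired (limma adjusted p = 0.0257 in place of 0.0563) or without nucleoplasm replicate 3 (0.0493). Hnrnpl was also called lower with TMM scaling (limma adjusted p = 0.0140), with edgeR (adjusted p = 0.0235) and with DESeq2 (adjusted p = 0.00127). Hnrnpa2b1, a relative of Hnrnpa1, had 39376, 38765 and 33724 in chromatin and 45368, 41822 and 43820.2 in nucleoplasm, also without overlap. It was called lower with TMM scaling (limma adjusted p = 0.0496) and with DESeq2 (adjusted p = 0.0362). For the other 4 the fractions overlapped: Hnrnpa3 had 8489, 7892 and 9643 in chromatin and 10803, 8798 and 9866 in nucleoplasm, and Hnrnpc, a core protein of hnRNP particles, had 7128, 6842 and 8248 in chromatin and 8961, 8142 and 8212 in nucleoplasm. Hnrnpul1 had 17435, 17836 and 15507 in chromatin and 21419, 20743 and 17245 in nucleoplasm in a locus that also covers Ccdc97. Hnrnpul1 was called lower in chromatin with the libraries paired (limma adjusted p = 0.0424), and Hnrnpc was called lower without chromatin replicate 3 (0.0366). All of Hnrnpl, Hnrnpa2b1, Hnrnpa3, Hnrnpc and Hnrnpul1 were above 0 on the ERCC scale. Of these, Hnrnpul1 was called higher there (log2 0.51, limma adjusted p = 0.0434), so its call depends on the setting in both directions. Hnrnpf, close kin of Hnrnph1, had 12876, 12746 and 19241 in chromatin and 13282, 13397 and 13313 in nucleoplasm, and without chromatin replicate 3 its log2 fold change went from 0.14 to -0.057. On the ERCC scale Hnrnpf was called higher (log2 0.87, limma adjusted p = 0.0413).

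Related genes were compared directly through the log2 ratio of each pair within a library, over 8 pairs. With 3 libraries against 3 the smallest p of the exact permutation test is 0.1, so no pair could pass 0.05, and the adjusted value for the separated pairs was 0.133. These ratios compare counts, not levels per length. They separated the fractions in 6 of 8 pairs. The log2 ratio of Clk1 to Clk2 was 1.05, 0.87 and 2.12 in chromatin and -0.62, -0.80 and -0.75 in nucleoplasm, a difference of 2.07. That of Clk4 to Clk3 was 0.90, 0.74 and 0.49 in chromatin and -1.08, -1.12 and -1.22 in nucleoplasm, a difference of 1.85. Both ratios were higher in every chromatin library than in any nucleoplasm library. U2af1 to U2af2 differed by 2.62, with the reservation on the U2af2 locus given above. The counts for Clk2 also hold Scamp3, so the ratio of Clk1 to Clk2 is not of the kinases alone.

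Smaller differences separated the other related genes. Hnrnpd exceeded Hnrnpdl by more in chromatin (difference 0.85), Hnrnpl exceeded Hnrnpll by less (-1.25), and Srsf3 exceeded Srsf7 by more (0.41). Tra2a to Tra2b overlapped (difference -0.46, exact permutation p = 0.2), although with the libraries paired by number its difference had the same sign in all 3 pairs, which makes 7 pairs of genes in place of 6. The ratio of Hnrnpul1 to Hnrnpul2 did not separate the fractions (difference 0.0037, exact permutation p = 0.9). The loci counted for Hnrnpul1 and Hnrnpul2 also cover Ccdc97 and Bscl2, as given above.

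**Figure D3:**
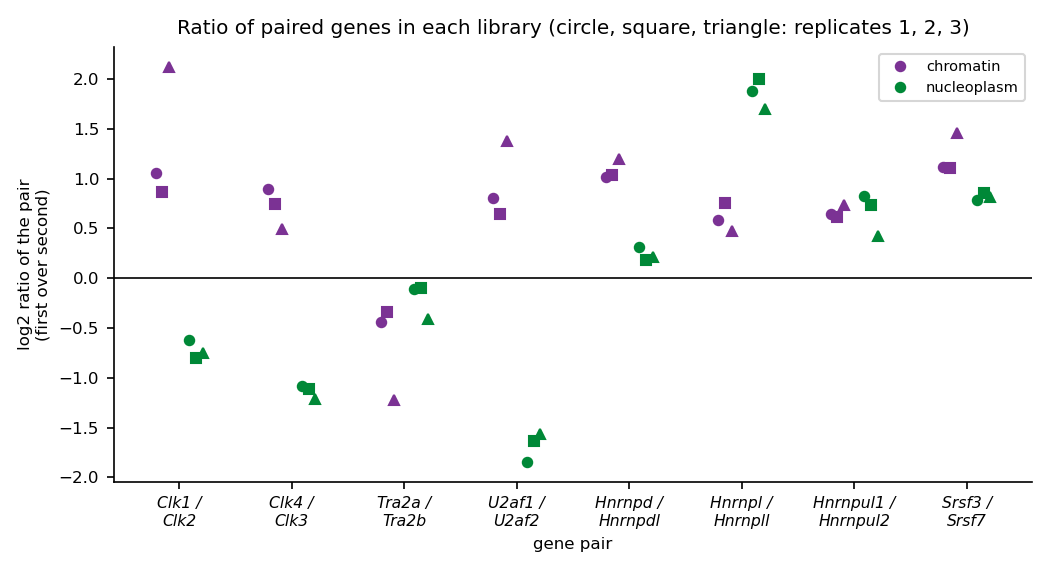
Log2 ratio of the normalized counts of 2 related genes (y axis) within each library for 8 pairs (x axis), chromatin in purple and nucleoplasm in green, with symbols for replicates 1 to 3. The Clk1 to Clk2, Clk4 to Clk3 and U2af1 to U2af2 ratios lie above 0 in all chromatin libraries and below 0 in all nucleoplasm libraries. The loci counted for Clk2, U2af2, Hnrnpul1 and Hnrnpul2 also cover other coding genes.

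Chromatin replicate 3 stood apart from the other chromatin libraries for some members. It was more than 1.3 times the mean of replicates 1 and 2 in 8 members (Clk1, Clk3, Hnrnpf, Rbm39, Sf1, Srsf3, Tra2b and U2af1). That is 21.6% of members, against 10.3% of 9776 protein-coding loci with a chromatin mean of at least 100. It was below that mean divided by 1.3 in 3 (Hnrnpa0, Hnrnph3 and Srsf9), or 8.11% of members against 24.1% of those loci. No member passed either limit in nucleoplasm replicate 3. Leaving replicate 3 of both fractions out together gave 21 members higher and 9 lower, a choice made after seeing the data. The share of all genes called was not counted for that fit. The summed level of 12 atrial cardiomyocyte markers was 2711810, 2565230 and 1324700 in chromatin and 483660, 465909 and 296270 in nucleoplasm, mostly Ttn, whereas Myl7, Myl4, Tnni3, Nppa and Nkx2-5 were lower in chromatin by their means (Myl7 7828 against 33029, Tnni3 3230.3 against 11807). Of these markers 10 had a chromatin mean of at least 10 normalized counts, and Myh6 and Tnnt2 were not matched to a locus here. All 5 fibroblast markers also reached that level (sums of 101790, 113752 and 117307 in chromatin and 217606, 212717 and 348084 in nucleoplasm, mostly Col1a1), whereas none of 3 ventricular markers did, with Myh7 not matched to a locus. Among smooth muscle markers 2 of 3 reached it (sums of 76246, 79325 and 50405 in chromatin and 198670, 202482 and 146411 in nucleoplasm, mostly Acta2), among endothelial markers 3 of 4 (1078 to 1942 and 1788 to 3023, mostly Kdr, with Cdh5 at 0) and among macrophage and leukocyte markers 2 of 4 (77.2 to 180.0 and 76.8 to 105, with Adgre1 at 0). Mitochondrial genes summed to 41326, 51348 and 80339 in chromatin and 658451, 580726 and 429733 in nucleoplasm, and 69 ribosomal protein genes to 239150, 259186 and 356992 and 1034520, 1084450 and 1291240. The part of these differences in the members' values was not tested. Malat1 and Neat1, nuclear RNAs, checked the fractions, with Malat1 at 1811940, 1629140 and 1443670 in chromatin and 117007, 112363 and 115765 in nucleoplasm and Neat1 at 252922, 227912 and 270646 in chromatin and 11034, 11126 and 13979 in nucleoplasm. The mRNA of Gapdh was at 2718, 3842 and 2254 in chromatin and 12858, 14619.8 and 9265 in nucleoplasm, and that of B2m at 2341, 2724 and 2024 in chromatin and 15602, 15353 and 14012 in nucleoplasm. Both nuclear RNAs were thus higher in chromatin, and both mRNAs were lower.

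Other splicing genes were read from 4 lists to place the members. Core snRNP and spliceosome proteins went the other way. Of 36 with a locus (39 listed), 31 were lower in chromatin (86.1%), 2 higher (5.56%) and 3 not called, with a median log2 fold change of -0.97. Protein-coding loci also leaned that way, with 43.4% called lower and 25.5% higher (median -0.32). The small Sm proteins were lowest, with Snrpf at 178, 200.2 and 114 in chromatin and 829.6, 1100.3 and 1429 in nucleoplasm and Snrpd2 at 510.3, 613 and 672 in chromatin and 3282, 3593 and 4251 in nucleoplasm, and Snrpg at 268, 288 and 333 in chromatin and 1559, 1489 and 1813 in nucleoplasm. At the other end Snrnp70, the U1 protein that SR proteins contact, was higher (16850.5, 16381 and 20331 in chromatin and 11109, 10558 and 13035 in nucleoplasm), followed by Dhx15, a helicase that takes spliceosomes apart (25502, 22924 and 29461 in chromatin and 19467, 17973 and 18648 in nucleoplasm), and by Prpf3 (4183, 3871 and 3376 in chromatin and 3848, 3242 and 3411 in nucleoplasm), which was not called. Without chromatin replicate 1 or nucleoplasm replicate 2 the call for Dhx15 was lost (limma adjusted p = 0.0544 and 0.0649). On the ERCC scale 9 of the 36 were lower, where 8.67% of all genes were lower.

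SR-related proteins and SR kinases were mostly higher in chromatin. Of 25 with a locus (29 listed), 19 were higher in chromatin (76%), 1 lower (4%) and 5 not called, with a median of 1.44. Over protein-coding loci 25.5% were called higher and 43.4% lower. Rsrp1 (18444, 16691 and 10391 in chromatin and 2572, 2383 and 1913 in nucleoplasm), Arglu1 (14014, 12133 and 15516 in chromatin and 2559, 2323 and 2800.5 in nucleoplasm) and Sfswap (19283, 17966 and 22010.5 in chromatin and 3639, 3591 and 3829.6 in nucleoplasm), all arginine-serine-rich proteins, were each more than 4-fold higher. The kinases Srpk1 and Srpk2, which phosphorylate SR proteins in the cytoplasm, were among the 19. Scaf11, at 4066, 4132 and 2949 in chromatin and 5072, 4764 and 5374 in nucleoplasm, was the 1 lower gene, a call lost with the libraries paired (limma adjusted p = 0.0691) and turned in sign on the ERCC scale (log2 0.27). Scaf1 (3550.4, 3342 and 2224 in chromatin and 4332, 4123 and 3635 in nucleoplasm) and Acin1 (6945, 7515 and 5141 in chromatin and 7719, 8337 and 8601 in nucleoplasm) were next lowest and not called, and Scaf1 passed with the libraries paired (0.0326). The call for Scaf11 also ended on leaving out chromatin replicate 1 or 2 (0.0649 and 0.0505) or nucleoplasm replicate 1, 2 or 3 (0.114, 0.0835 and 0.120).

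Of 33 other RNA-binding splicing regulators with a locus (39 listed), 19 were higher in chromatin (57.6%), 7 lower (21.2%) and 7 not called (median 0.87). The shares over protein-coding loci were 25.5% higher and 43.4% lower. Rbfox2, a regulator of muscle exons, had 108328, 101329 and 83270.1 in chromatin and 14645, 13643 and 13202 in nucleoplasm. The paraspeckle protein Pspc1 had 40712, 35707 and 35659 in chromatin and 7335, 6289 and 6933 in nucleoplasm, and Fubp1 45568, 38929 and 37329 in chromatin and 8125, 7500.5 and 7299.7 in nucleoplasm. These 3 were highest, and 7 of the 33 were more than 4-fold higher, where 15.7% of all genes and 5.27% of protein-coding loci were. Pcbp1, a poly-C binding protein like Hnrnpk, was lowest at 2402, 2575 and 1116 in chromatin and 10562, 8716 and 6718 in nucleoplasm, followed by Khsrp at 9293, 10793 and 7163 in chromatin and 24796, 25295 and 21722 in nucleoplasm and Nono, a partner of Pspc1, at 7969, 8316 and 5784 in chromatin and 19217, 18678 and 17034 in nucleoplasm.

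Nonsense-mediated decay factors were mixed, with 3 of 10 higher (30%), 3 lower (30%) and 4 not called (median 0.16). The share higher was near that over all genes (26.9%) and protein-coding loci (25.5%), where 20.9% and 43.4% were lower. Upf3b (5998, 5497 and 4835 in chromatin and 1793, 1549 and 1939 in nucleoplasm) was highest, followed by Upf2 (5008, 4672 and 5028 in chromatin and 3158, 2700.3 and 4027 in nucleoplasm) and Smg6 (3778, 3597 and 3569 in chromatin and 2696, 2633 and 2645 in nucleoplasm). Smg8 (782, 815 and 642 in chromatin and 1481, 1544 and 1583 in nucleoplasm), Upf1 (4221, 4449.8 and 3216 in chromatin and 7283, 7703 and 6645 in nucleoplasm) and Smg9 (782, 807 and 772 in chromatin and 1136, 1305 and 985 in nucleoplasm) were lower, where Smg9 turned above 0 on the ERCC scale (log2 0.21). Without chromatin replicate 1, 2 or 3 or nucleoplasm replicate 1 the call for Upf2 was lost (limma adjusted p = 0.0729, 0.0506, 0.0594 and 0.0678).

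**Figure D4:**
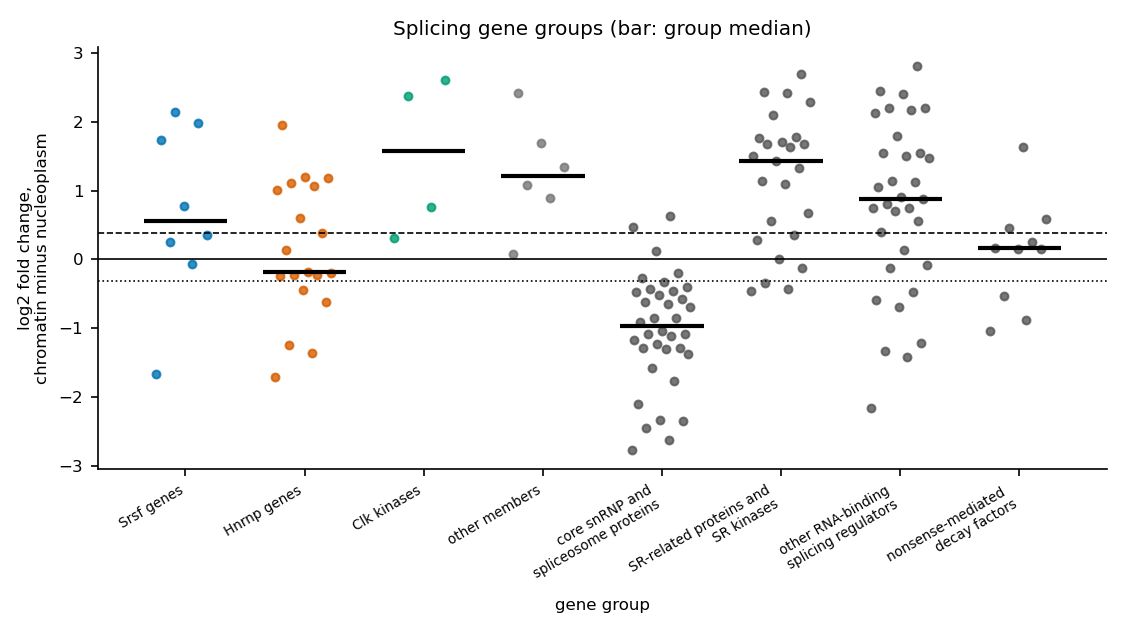
Log2 fold change between chromatin and nucleoplasm (y axis) of each gene in the 4 member groups (colours) and 4 lists of other splicing genes (grey), with a bar at each group's median and lines at 0, 0.38 (all genes, dashed) and -0.32 (protein-coding loci, dotted). Core snRNP and spliceosome proteins lie mostly below 0 (median -0.97), and SR-related proteins and SR kinases mostly above (median 1.44).

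Annotation and coding sequence gave further features of the members. A transcript classed as subject to nonsense-mediated decay is annotated for 27 of the 37 members (73.0%) and for 28.7% of 11240 protein-coding genes with an assembled locus, and a retained-intron transcript for 29 (78.4%) against 58.2%. The members also have more annotated transcripts, a median of 9 against 5. Over the 37 genes the log2 fold change had a Spearman rho of 0.42 with the number of such decay and intron-retaining transcripts, 0.48 with gene span and 0.26 with the density of arginine-serine pairs. All points come from the same 6 libraries, and these values are descriptions only. The 2 genes with the densest arginine-serine pairs, Srsf2 and Srsf7 (23.5 and 23.1 per 100 codons), had log2 fold changes of -0.064 and 0.36, whereas Clk4, with 1.87, had the largest fold change. The assembled locus ran more than 1 kb past the annotated 3′ end in 19 members.

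Long reads from chromatin were found inside most members. On the strand of the gene, 34 of 37 members (91.9%, as in 91.9% of protein-coding genes with a locus) had transcript models with TPM (transcript abundance scaled to the library total) above 0 that lay at least 90% inside the gene, and the median was 43.7 TPM against 13.1. These are 2 libraries of 1 condition, so no test was made. Rbm39 was highest, at 335 and 307 TPM in replicates 1 and 2, followed by Hnrnph1 at 267 and 183, Hnrnpa1 at 179.6 and 131 and Srsf2 at 186 and 103. Rbm39 thus ranked first in chromatin by long reads and by the short-read level per kb, which was 3811 for Srsf2. The short-read call compares the fractions, which the long reads cannot do without a nucleoplasm library. Replicate 1 was higher in 31 of the 34 members with TPM above 0, where it was higher in 5758 of 10334 such protein-coding genes, and the widest gap was that of Hnrnpa2b1, at 212 and 43.0 TPM.

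The kinases followed the short-read order in part. Clk4 had 101 and 47.4 TPM and Clk1 63.2 and 45.7, above Clk3 at 23.4 and 17.8 and Clk2 at 10.6 and 9.53. In Clk2 most of this (9.18 of 10.1 TPM on average) lay in models that touch no annotated exon. Across the 4 kinases, the models were split between reference coding accessions (44.7% of TPM), reference noncoding accessions (5.39%) and assembled models (49.9%). Noncoding accessions made up 1.34% over all members and 5.68% over protein-coding genes.

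No long-read TPM was found under this rule in 3 members, Srsf3, Srsf9 and Hnrnpab. With any overlap on the same strand counted, they had 342 and 179, 15.1 and 6.38, and 56.2 and 45.0 TPM, so their models reached beyond the annotated gene. Models within the members touched exons almost throughout, with 2.46% of TPM in models that touched none, against 33.3% over all protein-coding genes. Exons were those of any annotated transcript, with retained-intron transcripts included, and a model touched an exon if any part of its span met one. Members have more annotated transcripts, as given above, and the part of this was not tested. Models covering most of the gene (Jaccard index of at least 0.5) made up 91.7% of the members' TPM against 58.5%. Median gene span was 13.9 kb for members and 25.3 kb for the other set, and its part in these shares was not tested.

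Opposite-strand models were common, and the long-read libraries were aligned without strand, so that their strand is less certain than that of the short reads. They made up 28.6% of the TPM inside members against 38.7% over protein-coding genes. Srsf10 had 87.3 and 67.9 TPM on the opposite strand against 83.6 and 61.9 on its own. It was 1 of 6 members with more mean TPM on the opposite strand, where 2184 of 11240 protein-coding genes had more. The others were Hnrnpl (61.8 and 49.5 against 46.0 and 38.8), Hnrnpdl (56.3 and 40.3 against 34.6 and 34.0), U2af1 (67.6 and 40.5 against 71.2 and 34.4), Hnrnpd (25.7 and 19.6 against 22.3 and 19.1) and Srsf3 (0 and 35.4 against 0 and 0). None was found inside Clk1, Srsf2, Srsf6, Srsf9, Hnrnpa0, Hnrnpab or Hnrnph3. Over the 37 members, long-read TPM had a Spearman rho of 0.46 with the short-read chromatin level per kb and 0.11 with the log2 fold change, and of 0.92 between both long-read replicates, again as descriptions.

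**Figure D5:**
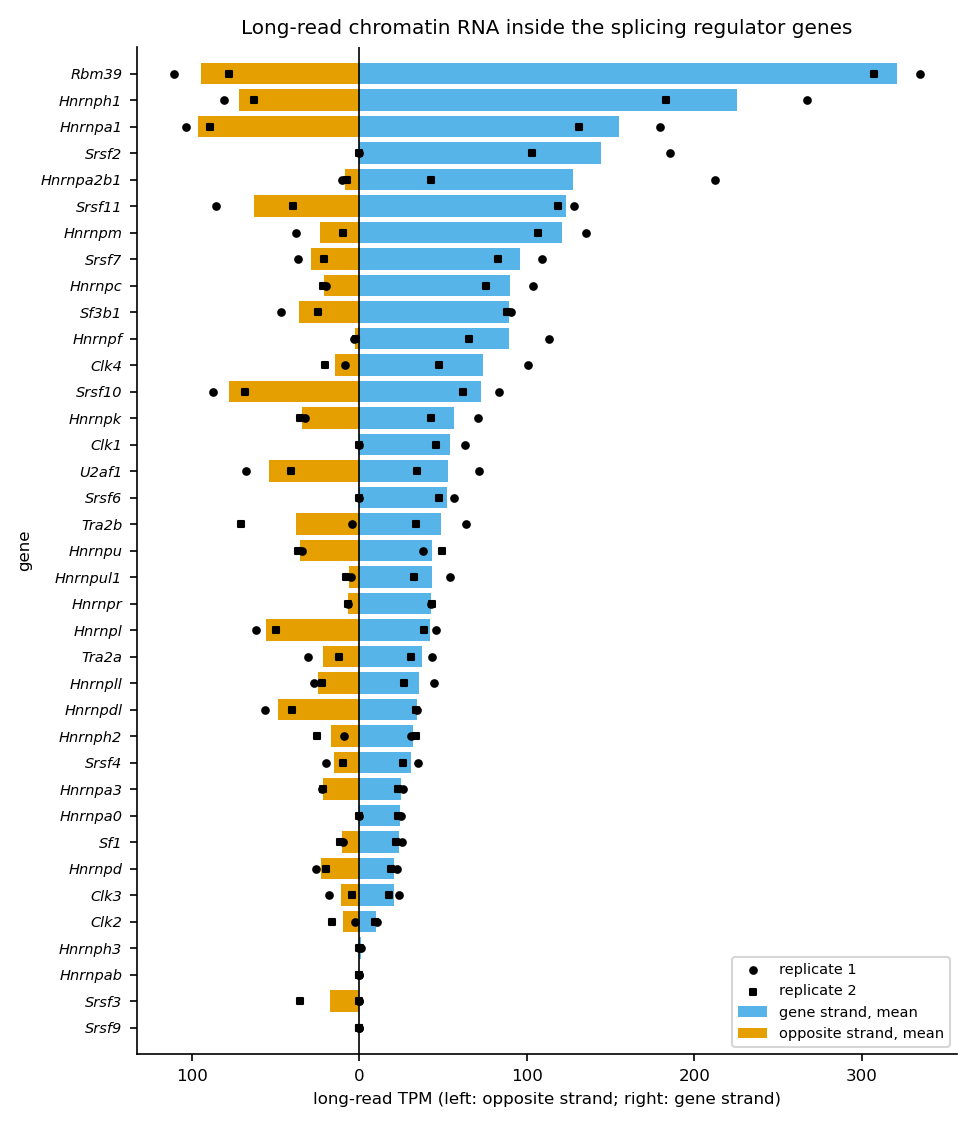
Long-read TPM of transcript models at least 90% inside each member (y axis, ordered by mean), on the gene's strand to the right and on the opposite strand to the left (x axis, linear), with bars for the mean of 2 chromatin libraries and points for each. Rbm39 is highest, and Srsf3, Srsf9 and Hnrnpab have no bar to the right.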

How the data were processed

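Members and gene lists were chosen with earlier results of these data known. The authors aligned short reads with HISAT2 2.1.0 to mm10 plus ERCC standards, assembled loci with StringTie and deposited a signal per locus: gene counts divided by DESeq2 size factors, not scaled for length. Dividing by 1 step per library returned whole reads (tolerance 0.001) for 100% of values, 91657034 to 121773350 per library. Long reads were aligned with minimap2 without strand, and the authors deposited StringTie TPM per transcript model. Libraries follow their titles; 1 label field of the nucleoplasm libraries reads chromatin. Per the study's methods the short-read libraries came from 3 independent cultures, and replicates differed by more than sampling noise. No source used here says that a replicate number marks 1 culture in both fractions.

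Here log2(normalized count + 1) of genes above 0 in at least 1 of 6 libraries was tested with limma 3.58.1 (trend, Benjamini-Hochberg adjustment), in R 4.3.3. Fold changes are on that scale, and ratios are of means. The count tests on recovered reads, edgeR 4.0.16 and DESeq2 1.42.0, called 15392 and 16318 genes where limma called 17109. Libraries with the same number deviated together (correlations 0.119, 0.102 and 0.249 over 23911 genes, between -0.158 and 0.0631 for other numbers), so the numbers were taken to pair the libraries from the data alone and a paired fit was run. Other alternatives changed pseudocount, filter, scaling, libraries and the locus rule. Named were all kinases and splicing factors, the 4 highest and lowest Srsf and Hnrnp genes, those near 0, those with most long-read TPM, those with a Jaccard index under 0.8 or overlapping groups, and the 3 highest and lowest of each list with a mean of at least 100. Sequences and annotation were GENCODE M21.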

Additional observations from a re-analysis of the deposited data

How the results depend on the processing

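Of the 27 members called, 20 kept their direction and call under all 17 alternatives of scaling, test, filter, pseudocount, pairing, summed rows and left-out libraries. Another 5 lost the call somewhere (Hnrnph3, Hnrnpu, Srsf7, Hnrnpab and Hnrnpk) and 2 turned sign on the ERCC scale (Hnrnpa1 and Hnrnph2). Leaving out libraries gave 18 to 21 members higher and 6 to 9 lower, a median log2 fold change of 0.50 to 0.70 (0.57 without replicate 3 of both fractions), 23 to 28 of the named members called, 75 to 89 genes called over the other lists, and 6 to 7 separated pairs. Shares over all genes were not counted for these fits. With the replicate number as a block 23 members were higher and 8 lower, where 28.8% of all genes were higher and 23.6% lower. Beyond the calls given for Clk2, Srsf6, Hnrnpl, Hnrnpul1, Scaf11 and Scaf1 the block changed none of a named gene. Beyond 4-fold, 4 members were higher and 0 lower with limma. Members lower at any fold numbered 6 with limma, 7 with edgeR and 8 with DESeq2, where 20.9%, 21.4% and 21.4% of all genes were lower. ERCC scaling left 2 members and 9 core spliceosome genes lower, where 8.67% of all genes were lower. The members' median was 0.50 with TMM scaling, 0.49 with edgeR, 1.34 with ERCC scaling and 0.77 for loci with a Jaccard index of at least 0.8. On the ERCC scale the sign turned for Hnrnpa1 (0.29), Hnrnpa2b1 (0.50), Hnrnpa3 (0.55), Hnrnpc (0.54), Hnrnph2 (0.11), Hnrnpl (0.49), Hnrnpul1 (0.51), Srsf2 (0.67), Acin1 (0.39), Scaf1 (0.30), Scaf11 (0.27) and Smg9 (0.21). Sf3b1 turned with TMM scaling (-0.025) and edgeR (-0.024), and Hnrnpf without chromatin replicate 3 (-0.057) and without replicate 3 of both fractions (-0.058), with 0.24 as its highest value without 1 library. The difference of Hnrnpul1 and Hnrnpul2 turned without chromatin replicate 3 (-0.032) and nucleoplasm replicate 3 (-0.116), with 0.085 as its highest. Long-read TPM summed over members was 2462, 2050 to 2874 by library and 1293 for models wholly inside the gene. Beyond the common shift on the ERCC scale, the causes were not tested. Hnrnph3, with the fewest counts among members, and Hnrnpu each lost the call without 5 of the 6 libraries in turn. Hnrnpu, Srsf7, Dhx15 and Upf2 also lost it with TMM scaling, with edgeR and with no filter on low values, Hnrnph3 and Scaf11 with no filter, and Smg8 and Upf1 on the ERCC scale.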
